A study of Mus musculus with 32 samples.

Results

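Transcripts of 42 genes that license replication origins and run the replication fork were followed through 3 array experiments on mouse B-lineage cells. The genes were taken by name, with earlier results of these data known, as a set that runs from the origin to the ligated strand. All 42 were among the 18193 genes measured. Other genes of the machinery, further subunits of polymerases delta and epsilon among them, are in a separate list of 33 origin and fork genes. Where several probe sets measured a gene, the one whose values varied most across an experiment's arrays stood for it, which concerned 31 of the 42 genes. The 42 had 90 probe sets in all. The genes fall into 9 groups by role: 6 subunits of the MCM ring, 6 of the origin recognition complex, 3 loading factors with their inhibitor, 4 helicase activators, 4 GINS subunits, 8 subunits of primase and the polymerases, 6 of the sliding clamp and its loader, 3 of the single-strand binding protein RPA and 2 enzymes that mature Okazaki fragments.

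A replication origin is licensed before S phase, when the origin recognition complex together with Cdc6 and Cdt1 loads the inactive MCM ring onto DNA, and geminin (Gmnn) later binds Cdt1 and blocks reloading. At the start of S phase the kinase Cdc7 with its activator Dbf4 phosphorylates the ring, and Cdc45 and GINS join it with the help of Mcm10 to form the active helicase. Primase and polymerase alpha then start each strand, polymerases delta and epsilon extend it while held by the clamp Pcna, which replication factor C loads, RPA covers the exposed strand, and Fen1 and Lig1 join the Okazaki fragments. Many of these genes are transcribed under E2F factors as cells enter the cycle, and in the B lineage the pro-B and large pre-B stages are the ones that divide between rounds of immunoglobulin gene rearrangement.

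The study was built around Ebf1, a transcription factor that early B-cell development requires, and Pax5, which acts beside it. In the first experiment the mouse pre-B cell line 230238 carried either Ebf1-Engrailed, in which Ebf1 is joined to the Engrailed repressor domain, or the empty pMIG vector, with 3 arrays each from GFP-sorted cells. In the second, Ebf1-/- fetal liver cells of embryonic day 14.5 from C57BL/6J mice were grown on OP9 stromal cells with Kit ligand, Flt3 ligand and interleukin 7, transduced with the tamoxifen-activated fusion Ebf1-ER, sorted for GFP and measured 0, 6, 12 and 24 h after 0.1 uM 4-hydroxytamoxifen, with 2 arrays per time. In the third, cells of enlarged lymph nodes from 8 Ebf1+/-Pax5+/- C57BL/6 mice of about 30 weeks, frozen and sorted live after thawing, were measured on 2 arrays each beside 2 arrays labelled as pro-B cells of wild-type C57BL/6 mice. All arrays of the first 2 experiments share a vector, and all times of the second share the loss of Ebf1 and the Ebf1-ER construct. In the second no array is of cells lacking the construct, or of cells kept for 6, 12 or 24 h without the drug. The lymph nodes differ from their controls in tissue and handling as well as in genotype. The number on a lymph node was read as that of 1 mouse.

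Ebf1 itself, measured at a probe set whose place relative to the constructs and the deleted part is not known, was lower in all 3 Ebf1-Engrailed arrays (-1.90, -2.19 and -1.22 on the log2 scale, relative to the mean of the empty-vector arrays) and in all 6 later Ebf1-ER arrays (-0.85 to -0.59 relative to 0 h). In the third experiment it stood 4.14 to 4.86 above the arrays labelled wild-type pro-B in every lymph node, although the nodes carry 1 functional Ebf1 allele. The myeloid genes Mpo and Elane ran the other way there, with lymph node values of -7.42 to -7.05 and -2.45 to -2.06. The surrogate light chain genes Igll1 and Vpreb1, which mark pro-B cells, were lower in every node than in both of those arrays (-1.39 to -0.20 and -1.09 to -0.12), and 7 of 10 B-lineage genes had a difference below 0, with a median of -0.55. All 10 myeloid genes had a difference below 0, with a median of -3.24. Low Ebf1 and high Mpo thus go against the label of those 2 arrays. Igll1 and Vpreb1 lean towards it, but the separation is narrow. Their highest nodes stood at -0.20 and -0.12 and the lower of the 2 arrays at -0.16 and -0.11. What cells the 2 arrays hold is not settled by these genes. They are called the arrays labelled wild-type pro-B throughout, and every direction in the third experiment rests on them. In the first 2 experiments each probe set was deposited centred on its median over the arrays, and in the third 10879 were. How the other probe sets of the third were centred was not identified. Differences between arrays of an experiment can be read, but levels, and the presence of a cell type from its markers, cannot. Whether replicates were separate cultures is not stated, so the spread behind the p-values may be technical.

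Activation of Ebf1-ER was followed by a joint rise of the replication genes. At 6 h 38 of the 42 were higher than at 0 h, where 18.6% of all genes were, and none was lower. At 12 h 40 were higher, against 19.9% of all genes, and at 24 h all 42 were, against 21.0%. In either direction 39.8% of all genes were called at 12 h and 38.8% at 24 h. The median change of the 42 was 0.94 at 6 h, 1.47 at 12 h and 1.52 at 24 h on the log2 scale. The median of all genes stayed at 0.03, 0.03 and 0.05. These sizes rest on the probe set that varied most over the same arrays. When the probe sets were averaged per gene, the medians of the 42 were smaller, at 0.69, 1.27 and 1.32. Calls here and throughout are those of limma with an adjusted p under 0.05, after Benjamini-Hochberg adjustment over all genes. These comparisons share the 0 h arrays. The 0 h arrays lay below all 6 later arrays for 40 of the 42 genes, against 23.3% of all genes, and Orc4 and Dbf4 were the exceptions. In bulk samples such as these, a change in the share of cells of a type, or of cells in a phase of the cycle, and a change in RNA per cell cannot be told apart.

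**Figure D1:**
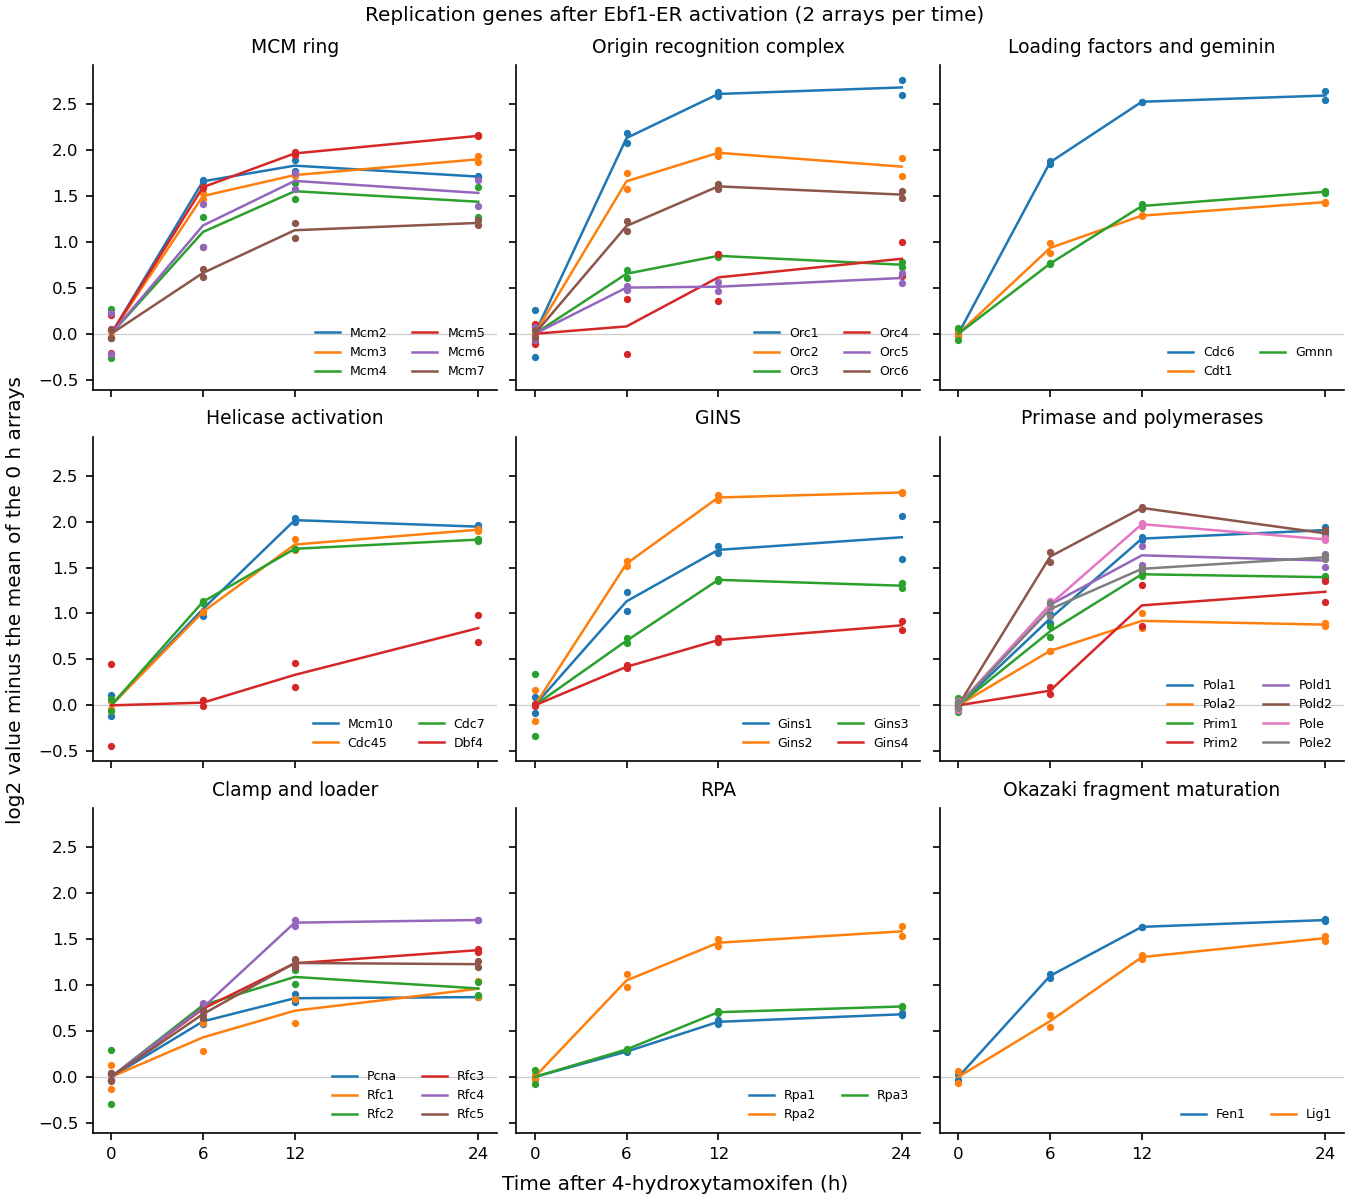
Change of each replication gene after Ebf1-ER activation, in 9 panels by role. The horizontal axis is the time after 4-hydroxytamoxifen in h, the vertical axis the log2 value minus the mean of the 0 h arrays; points are the 2 arrays of a time and lines join their means. Orc1 and Cdc6 reach 2.68 and 2.59 at 24 h, most genes gain little after 12 h, and Orc4, Dbf4 and Prim2 lie near 0 at 6 h.

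Because the genes rose together, their promoters were searched for the words that E2F factors are known to bind. RefSeq (GRCm38.p6) windows from 250 bases before to 50 after the start were matched for 34 of the 42 genes, 43 windows in all. Gins1, Gins2, Gins4, Rfc2, Prim2, Mcm4, Gmnn and Pole are not listed in the table used. The words TTTCCCGC, TTTCGCGC, TTTGCCGC and TTTGGCGC, searched on both strands with overlaps allowed, occurred in a window of 14 of the 34 genes, or 41.2%, and of 3.81% of the 14452 genes with a window. They were found in 4 of 5 MCM genes, in both Cdc6 and Cdt1, in 2 of 6 ORC genes and in 3 of 6 polymerase genes. They occurred in 1 of 5 clamp and loader genes and in Gins3 and Lig1, but in none of 4 helicase activators and 3 RPA genes. Outside the set, 9 of 30 other origin and fork genes (30%) and 2 of 19 mitosis genes (10.5%) had such a word. To show where the words lie in genes of the MCM ring, loading, ORC and polymerase groups, 5 promoters are given as the 250 bases before the start, read 5′ to 3′ along the gene, with the E2F words or their reverse complements in capitals: Mcm6 at chr1:128359706-128359955 on the minus strand, Mcm7 at chr5:138171884-138172133 on the minus strand, Cdc6 at chr11:98907901-98908150 on the plus strand, Orc1 at chr4:108579204-108579453 on the plus strand and Pola1 at chrX:93632156-93632405 on the minus strand.
Mcm6: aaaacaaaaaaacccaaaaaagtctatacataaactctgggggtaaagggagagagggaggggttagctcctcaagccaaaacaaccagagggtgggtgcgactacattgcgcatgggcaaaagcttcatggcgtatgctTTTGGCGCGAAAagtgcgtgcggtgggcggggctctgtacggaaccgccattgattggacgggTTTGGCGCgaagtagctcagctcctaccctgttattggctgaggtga
Mcm7: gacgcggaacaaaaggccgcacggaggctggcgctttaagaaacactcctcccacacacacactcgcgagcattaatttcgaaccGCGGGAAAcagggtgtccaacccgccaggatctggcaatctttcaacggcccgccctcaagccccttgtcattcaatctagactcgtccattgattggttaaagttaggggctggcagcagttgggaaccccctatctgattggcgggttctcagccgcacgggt
Cdc6: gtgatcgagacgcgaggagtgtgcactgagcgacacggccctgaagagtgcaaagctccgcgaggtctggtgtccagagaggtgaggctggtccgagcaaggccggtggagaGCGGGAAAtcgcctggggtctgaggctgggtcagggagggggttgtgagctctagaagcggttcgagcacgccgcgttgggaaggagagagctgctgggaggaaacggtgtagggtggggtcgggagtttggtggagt
Orc1: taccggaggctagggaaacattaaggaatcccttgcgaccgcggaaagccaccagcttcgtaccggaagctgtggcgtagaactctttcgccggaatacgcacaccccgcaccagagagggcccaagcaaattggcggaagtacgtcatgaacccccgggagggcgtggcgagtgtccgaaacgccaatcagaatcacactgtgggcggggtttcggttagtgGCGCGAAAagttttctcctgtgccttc
Pola1: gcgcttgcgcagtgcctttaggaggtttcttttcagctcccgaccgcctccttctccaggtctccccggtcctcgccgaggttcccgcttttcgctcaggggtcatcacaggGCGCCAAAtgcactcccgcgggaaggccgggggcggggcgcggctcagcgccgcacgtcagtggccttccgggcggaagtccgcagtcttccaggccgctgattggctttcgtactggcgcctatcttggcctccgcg
Mcm6 holds 3 words, a pair of them overlapping, that begin 110, 106 and 47 bases before the start. In the 250 bases shown the single word of Orc1 begins 27 bases before the start, that of Cdc6 and of Pola1 138 bases and that of Mcm7 165 bases before it. The Ebf1 word was TCCC and GGGA parted by any 2 bases, also searched on both strands. It was found in a window of 1 of the 34 genes, Pola1, and of 1.28% of all genes. Of the other origin and fork genes 2 of 30 had it (6.67%), and of the mitosis genes 0 of 19. The word TTTGAA, known as the CHR element of mitotic genes, was found in 20.6% of the replication genes, 15.7% of all genes and 73.7% of the 19 mitosis genes with a window, and CCAAT in 61.8%, 42% and 84.2%. The 14 genes with an E2F word had a median change of 1.55 at 24 h and the 20 genes with a window but no word one of 1.46. A word is a match of letters and not a binding site.

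The MCM ring had come most of the way by 6 h. Mcm2 stood at 1.65 and 1.67 on the 6 h arrays, 1.89 and 1.77 at 12 h and 1.70 and 1.72 at 24 h, relative to the mean of the 0 h arrays at -0.04 and 0.04. Mcm5 read 1.60 and 1.59, then 1.95 and 1.98, then 2.15 and 2.16, from 0 h arrays at -0.21 and 0.21. For both genes the later arrays lie clear of the 0 h arrays, and Mcm2 had 97.0% and Mcm5 74.1% of its 24 h change at 6 h. Mcm7 was the slowest subunit, with 0.62 and 0.71 at 6 h and 1.18 and 1.23 at 24 h, which is 54.9%. All 6 subunits were higher at 6 h, by 0.66 to 1.66, and at 24 h, by 1.21 to 2.15 (Mcm5 2.15 ± 0.13 SE, n = 2 and 2, adjusted p = 1.98e-05 by limma). Mcm4 and Mcm6 were the least even between replicates, with 6 h arrays at 1.27 and 0.94 and at 1.41 and 0.95. As a group the ring had a median of 1.44 and 1.24 on the 6 h arrays and of 1.65 and 1.75 on those of 12 h.

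The origin recognition complex held both the largest and the smallest rise of the set. Orc1, its largest subunit and the one whose amount varies with the cell cycle in many cells, read -0.25 and 0.25 at 0 h, 2.08 and 2.18 at 6 h, 2.63 and 2.59 at 12 h, and 2.76 and 2.60 at 24 h. At 24 h it was 6.42-fold higher, a log2 difference of 2.68 ± 0.16 (SE, n = 2 and 2, adjusted p = 1.76e-05 by limma). Orc2 rose by 1.82 and Orc6 by 1.51, and they had 91.3% and 77.5% of that change by 6 h. The core subunits Orc3, Orc4 and Orc5 moved less, by 0.75, 0.82 and 0.61. Orc4 stood apart in time as well at the probe set used. Its arrays read 0.38 and -0.22 at 6 h, 0.36 and 0.87 at 12 h and 1.00 and 0.63 at 24 h. Its replicates overlap between neighbouring times, and only the 24 h change was called (0.82 ± 0.24 SE, n = 2 and 2, adjusted p = 0.0306 by limma). The 4 probe sets of Orc4 gave 24 h changes from -0.07 to 0.82. At 6 h they ran from 0.08 to 0.72, and 2 were called higher. The mean over the 4 was called at 6 h and at 12 h too.

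Of the loading factors, Cdc6, the ATPase that brings MCM to the origin, showed the second largest rise. It stood at 1.85 and 1.88 at 6 h, 2.53 and 2.52 at 12 h and 2.64 and 2.55 at 24 h, against -0.02 and 0.02 at 0 h. The arrays of 0, 6 and 12 h do not overlap. The change at 24 h was 6.04-fold (2.59 ± 0.09 SE, n = 2 and 2, adjusted p = 2.54e-06 by limma). Cdt1, the MCM chaperone, rose by 1.43 and its inhibitor Gmnn by 1.55 at 24 h. Cdt1 had 65.2% of this by 6 h and Gmnn 49.4%.

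Among the helicase activators, Mcm10 gained nearly as much from 6 to 12 h (0.97) as in the first 6 h (1.05). Mcm10 read 0.97 and 1.13 at 6 h, 2.04 and 2.00 at 12 h and 1.93 and 1.96 at 24 h, from -0.11 and 0.11. The 12 h arrays of Cdc45, at 1.81 and 1.69, lay as clearly above its 6 h arrays, both at 1.02. For Dbf4, the activating subunit of Cdc7, the timing depended on the probe set. Its 0 h arrays differed by more than those of any other member, at 0.45 and -0.45, its 6 h arrays read 0.06 and 0.00, and it was called at 24 h alone (0.84 ± 0.26 SE, n = 2 and 2, adjusted p = 0.038 by limma) with 12 to 24 h as its largest step. The other Dbf4 probe set was called at 12 h too (0.45), with a called step of 0.69 from 6 to 12 h and one of 0.30, not called, after it. The 24 h calls of Dbf4 and Orc4 did not hold with each array left out in turn. In the GINS complex, which completes the helicase, Gins2 rose most, by 2.32 at 24 h, with 6 h arrays at 1.51 and 1.57 and 12 h arrays at 2.28 and 2.24. Gins4 rose least, by 0.87, and Gins1 and Gins3 by 1.83 and 1.30.

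Primase and the replicative polymerases rose by a median of 1.59 at 24 h. Pola1, the catalytic subunit of polymerase alpha, read 0.99 and 0.89 at 6 h, 1.83 and 1.80 at 12 h and 1.94 and 1.87 at 24 h, and Pole, that of polymerase epsilon, 1.06 and 1.14, then 1.99 and 1.96, then 1.82 and 1.80. For both, every 12 h array lies above every 6 h array. Pold2, an accessory subunit of polymerase delta, was earlier, with 1.56 and 1.67 at 6 h, or 86.5% of its 24 h change. Prim2, the large primase subunit, was later at the probe set used, with 0.12 and 0.20 at 6 h (not called, adjusted p = 0.50 by limma). It read 0.86 and 1.31 at 12 h and 1.35 and 1.12 at 24 h. Its 3 probe sets disagreed at 6 h, where 1 was called higher and 1 lower, with changes from -0.38 to 0.37. At 24 h 2 were called higher and 1 lower, at -0.39.

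The clamp, its loader and RPA showed smaller rises. Pcna, the clamp, read 0.57 and 0.64 at 6 h, 0.90 and 0.81 at 12 h and 0.87 on both arrays at 24 h. Rfc4, a loader subunit, rose most of the 6, by 1.71, and did so late, from 0.81 and 0.70 at 6 h to 1.65 and 1.71 at 12 h. Rfc1, the large loader subunit, was not called at 6 h (0.43 ± 0.15 SE, n = 2 and 2, adjusted p = 0.067 by limma). Of the RPA subunits, Rpa2 rose by 1.58 at 24 h while Rpa1 and Rpa3 rose by 0.68 and 0.77, and Rpa1 and Rpa3 had 40.4% and 39.0% of that by 6 h. Fen1, the flap nuclease, rose by 1.71 and Lig1, the ligase, by 1.51.

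How the rise was divided between the times is given by group as a description, at the probe sets used. No difference between groups was tested. By 6 h the median share of the 24 h change was 81.1% for ORC, 77.0% for the MCM ring, 65.2% for the loading factors, 62.8% for the polymerases, 58.0% for GINS, 54.8% for clamp and loader, 53.6% for the helicase activators, 52.3% for Fen1 and Lig1 and 40.4% for RPA. Within a group the shares were wide, from 9.83% to 91.3% in ORC and from 54.9% to 97.0% in the MCM ring, and from 39.0% to 66.3% in RPA, so the groups overlap, the ends of this order included. The 15 licensing genes (MCM, ORC, Cdc6, Cdt1 and Gmnn) had a median of 77.1% and the other 27 genes one of 55.8%. Counted by gene, the step from 0 to 6 h was the largest for 35 genes and that from 6 to 12 h for 6, namely Orc4, Prim2, Rfc4, Rpa1, Rpa3 and Lig1.

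Between 6 and 12 h 17 genes rose further and none fell, where 1.50% of all genes rose and 2.39% changed in either direction. They were 6 of the 8 polymerase genes, 3 of 4 helicase activators, 3 of 6 clamp and loader genes, 2 of 3 loading factors, both Okazaki fragment enzymes and Gins2. No MCM, ORC or RPA gene was called by limma in this step, though 4 of 6, 3 of 6 and 3 of 3 had an unadjusted p under 0.05. Other treatments of the probe sets called some of these genes: the mean of all probe sets called 25 of the 42, with Mcm7, Orc1, Orc6, Rpa2 and Rpa3 among them, and a filter on variance called 21, with Mcm7, Orc6 and Rpa3 among them. The difference between groups in this step was not tested. The largest second steps were those of Mcm10 (0.97 ± 0.11 SE, adjusted p = 0.00523), Prim2 (0.93 ± 0.15 SE, adjusted p = 0.0257) and Rfc4 (0.92 ± 0.09 SE, adjusted p = 0.00292), each with n = 2 and 2 by limma, against 0.17 to 0.49 for the MCM genes. With 1 array of 6 or 12 h left out 3 or 4 members were called, with 1 of 24 h left out 9 were, and in 1 limma fit over all 32 arrays none was, with 20 at an unadjusted p under 0.05. Pole and Rfc4 were called with each array left out.

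**Figure D2:**
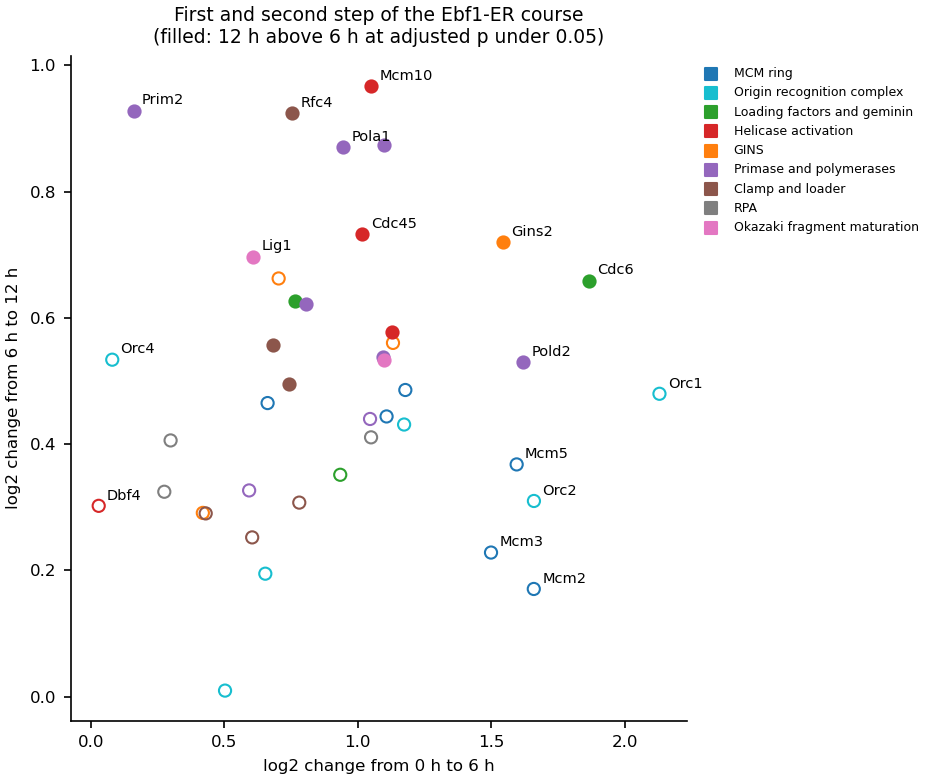
Log2 change from 0 to 6 h (horizontal axis) against that from 6 to 12 h (vertical axis) for the 42 genes, 1 point each, coloured by role and filled where the second step was called. Mcm2, Mcm3 and Mcm5 lie low on the right with second steps of 0.17, 0.23 and 0.37, while Mcm10, Rfc4, Pola1 and Prim2 lie high at 0.97, 0.92, 0.87 and 0.93; the axes share the 6 h arrays.

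After 12 h the set was level. None of the 42 genes was called between 12 and 24 h by limma, 1 (Pold2, -0.28) had an unadjusted p under 0.05, and 4.16% of all genes were called, 2.48% as higher. The 42 differences had a median of 0.07 and ran from -0.28 for Pold2 to 0.51 for Dbf4. From 6 to 24 h 26 genes rose, and none fell, against 4.92% and 4.39% of all genes (9.31% in either direction), by up to 1.08 for Prim2 and 0.96 for Pola1. Mcm2, Mcm4, Mcm6 and the 6 ORC genes were among the 16 not called. With either 24 h array or array 1 of 6 h left out, 12 or 13 were called, and with array 2 of 6 h left out 17.

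A list of 33 further origin and fork genes mostly moved with the set. It shares Top2a with the list of mitosis genes. At 6 h 24 were higher and 3 lower, with a median of 0.77, and at 24 h 27 were higher and 2 lower, with a median of 1.12. Dna2, a nuclease of Okazaki fragments, rose by 1.68 at 6 h, Dtl, part of the ligase that degrades Cdt1, by 2.22 at 24 h, and Dscc1, of an alternative clamp loader, by 2.36 at 12 h. The 2 that fell at 24 h, named after their values were seen, were the topoisomerase Top1 and the polymerase delta subunit Pold4, by 0.87 and 0.71 on the log2 scale.

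Genes of mitosis kept another time. Of 21 such genes 14 were lower and none higher at 6 h, with a median of -0.50, when 38 replication genes had risen. At 12 h 14 were higher and 3 lower, and at 24 h 19 were higher and 1 lower, with medians of 0.57 and 1.04. Between 12 and 24 h, when no replication gene was called, 13 of the 21 rose further. The array medians of the list were -0.45 and -0.53 at 6 h, 0.56 and 0.64 at 12 h and 1.10 and 1.05 at 24 h, so replicates did not overlap between the times.

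**Figure D3:**
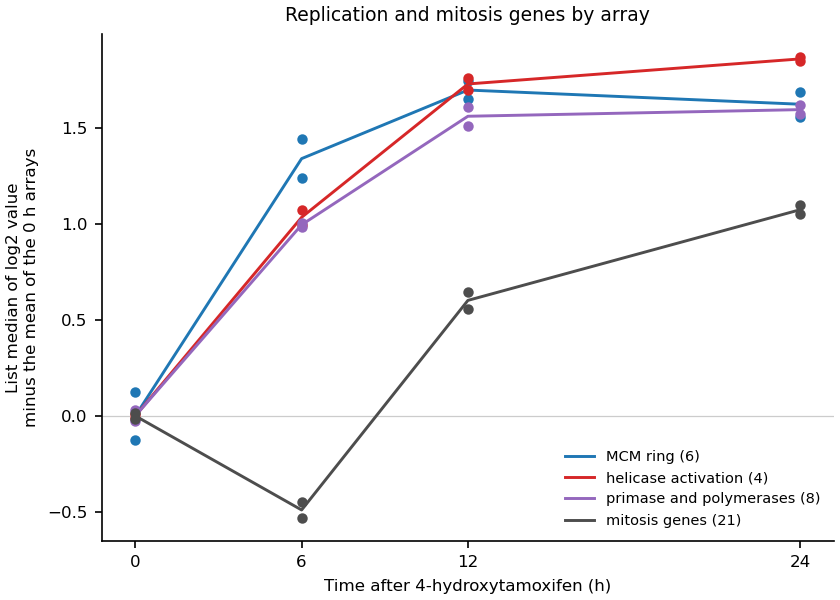
Median of each gene list on each array (points) and mean of the 2 arrays (lines) after Ebf1-ER activation, as log2 value minus the mean of the 0 h arrays against time in h. The MCM ring has medians of 1.44 and 1.24 on the 6 h arrays while the 21 mitosis genes are at -0.45 and -0.53, and the mitosis genes rise after 12 h when the replication groups are level.

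Markers of other cells moved in the same course. Of 8 stromal genes 5 were lower and none higher at 24 h, and their array medians went from 0.31 and -0.31 at 0 h to -1.24 and -0.77. Of 5 NK genes 3 and of 9 T-cell genes 5 were lower, with array medians of -0.92 to -0.81 and -0.47 to -0.40. Among 10 myeloid genes 2 were higher and 4 lower, and among 10 B-lineage genes 3 higher and 2 lower, and 1 of 7 mature B genes was lower and 1 of 4 erythroid genes higher. Among the B-lineage genes was Igll1 of the surrogate light chain, at 3.56 and 3.62 on the 24 h arrays. Their part in the rise of the replication genes was not tested.

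In the 230238 pre-B cell line the same genes were lower with Ebf1-Engrailed. This comparison asked what a repressing form of Ebf1 does in cells that have the normal factor. Of the 42 genes 28 fell and none rose, against 5.67% of all genes that fell and 7.93% that rose. The median difference of the 42 was -0.99 on the log2 scale where that of all genes was -0.02. When the probe sets were averaged per gene, the median of the 42 was -0.75. The 3 Ebf1-Engrailed arrays lay below the 3 empty-vector arrays for 33 genes, against 15.5% of all genes. The difference was smaller between the arrays numbered 3, where the median of the 42 was -0.68, than between those numbered 1 and 2, with -1.27 and -1.11.

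**Figure D4:**
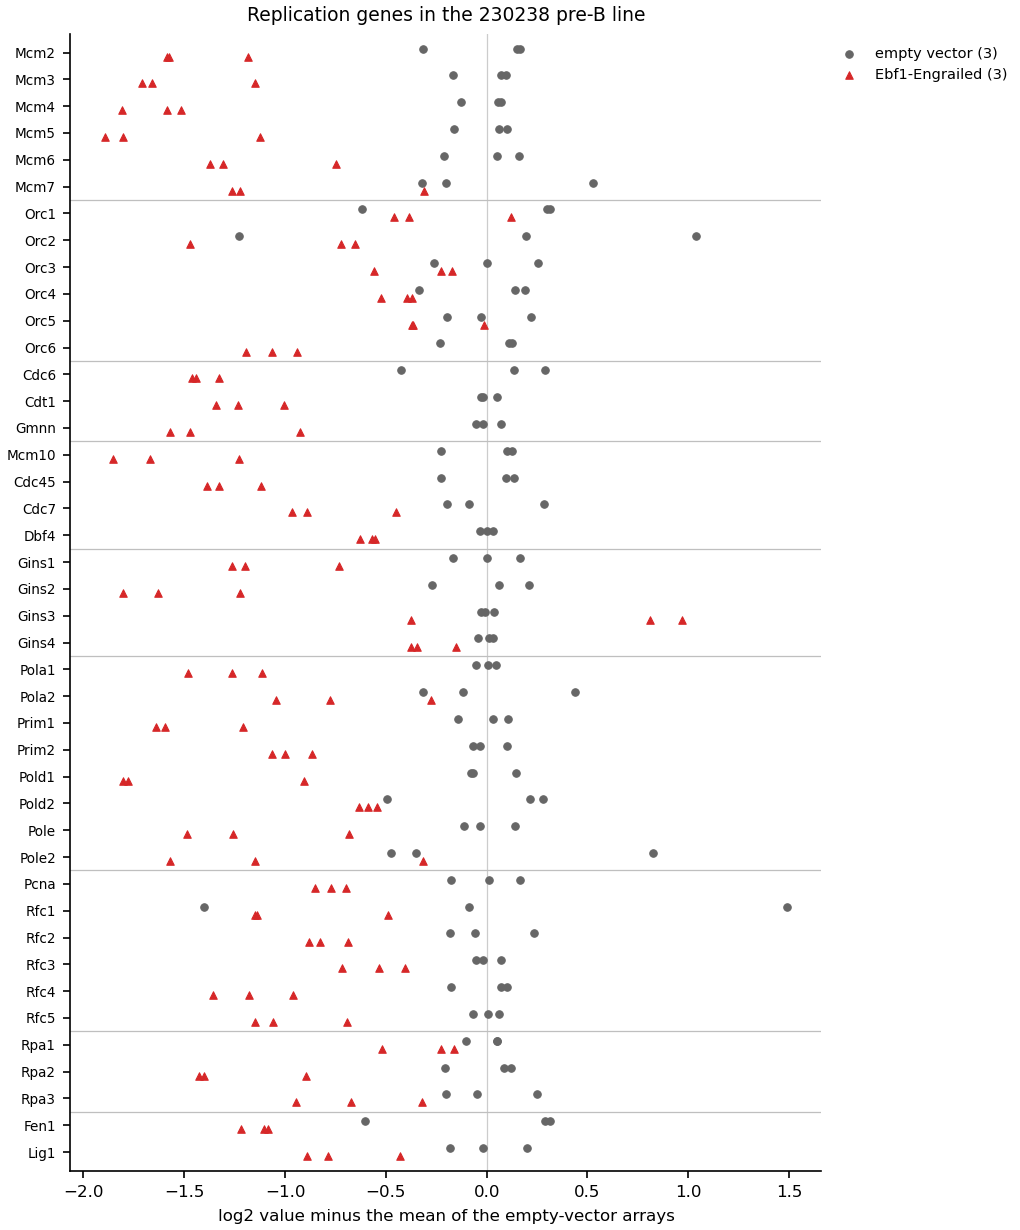
The 42 genes in the 230238 line, as log2 value minus the mean of the empty-vector arrays (horizontal axis), with 3 Ebf1-Engrailed arrays (triangles) and 3 empty-vector arrays (circles) per gene. MCM genes lie between -1.89 and -0.31, Orc1, Orc2, Orc3 and Orc5 overlap the controls, and Gins3 has 2 arrays above them.

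The MCM ring and its loading factors were among the lowest. Mcm4 showed the largest fall of the set, with Ebf1-Engrailed arrays at -1.81, -1.58 and -1.52 and empty-vector arrays at 0.06, -0.13 and 0.07 relative to their mean. It was 3.11-fold lower (log2 change -1.64 ± 0.12 SE, n = 3 and 3, adjusted p = 0.000522 by limma). The groups are far apart, as they are for Mcm5, whose arrays read -1.80, -1.89 and -1.12 against 0.10, 0.06 and -0.16. Mcm2, Mcm3 and Mcm6 fell by 1.45, 1.50 and 1.14 on the log2 scale. Mcm7 was not called (-0.93 ± 0.32 SE, n = 3 and 3, adjusted p = 0.111 by limma), its arrays at -1.22, -1.26 and -0.31 overlapping controls at -0.32, -0.20 and 0.53. With the array number as a block, Mcm7 (adjusted p = 0.00281 by limma) and Rpa3 (adjusted p = 0.00843) were called as well. Cdc6 fell by 1.41, Cdt1 by 1.19 and Gmnn by 1.32 on that scale, each with all 3 arrays below all controls.

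Of the 6 genes of the origin recognition complex Orc6 fell, by 1.07 on the log2 scale, and the other 5 were not called. Orc1, the largest rise of the Ebf1-ER course, read -0.38, -0.46 and 0.12 with Ebf1-Engrailed and 0.30, 0.32 and -0.62 with the empty vector, which overlap (-0.24 ± 0.28 SE, n = 3 and 3, adjusted p = 0.654 by limma). On arrays 1 and 2 Orc1 lay below its controls and on those numbered 3 above. When both arrays numbered 3 were left out, an alternative added after the data were seen, 36 of the 42 genes were lower, Orc1, Orc2 and Orc4 among them (-0.73, -1.30 and -0.55).

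All 4 helicase activators fell. Mcm10 read -1.85, -1.67 and -1.23 against 0.13, 0.10 and -0.23, a fall of 1.58 on the log2 scale, and Cdc45 fell by 1.28. Cdc7 and Dbf4 fell by 0.77 and 0.58, and Dbf4 had the smallest standard error of the set (adjusted p = 0.00635 by limma). The GINS genes were split: Gins2 fell by 1.55 and Gins1 by 1.06, while Gins3 and Gins4 were not called. Gins3 was the only member with a difference above 0 (0.47 ± 0.33 SE, n = 3 and 3, adjusted p = 0.437 by limma), its arrays at 0.97, 0.81 and -0.38 lying on both sides of controls at 0.04, -0.01 and -0.03. Both of its probe sets gave a value above 0, of 0.43 and 0.47. Without the arrays numbered 3 it was called higher (0.87).

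At the fork, 5 of 8 polymerase genes fell: Pold1 by 1.50, Prim1 by 1.48, Pola1 by 1.29, Pole by 1.14 and Prim2 by 0.98 on the log2 scale. The second subunits Pola2, Pold2 and Pole2 were not called, with differences of -0.70, -0.59 and -1.01. Another Pola2 probe set was called lower, at -0.69 (adjusted p = 0.00538 by limma, over all probe sets that name 1 gene). The other Pole2 probe set gave a smaller difference, -0.35 ± 0.11 (SE), which was not called either. Pcna fell by 0.77, with arrays at -0.85, -0.77 and -0.70 below controls at 0.01, 0.17 and -0.18, and Rfc2 to Rfc5 fell by 0.55 to 1.17. At the probe set used for Rfc1 the controls alone spread over 1.49, -0.09 and -1.40, and its other 2 probe sets gave -0.25 ± 0.10 and -0.22 ± 0.10 (SE), neither called by limma. Of RPA, Rpa2 fell by 1.24, and Fen1 and Lig1 fell by 1.14 and 0.70. Between 21 and 32 genes were called when any array was left out, and 21 of the 28 were called each time. The 7 that were not are Mcm6, Cdc7, Pole, Rfc2, Rfc3, Fen1 and Lig1.

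The wider lists fell too. Of the 33 other origin and fork genes 18 fell and none rose, with a median of -0.76, led by Dtl (-1.79 ± 0.37 SE, n = 3 and 3, adjusted p = 0.0202 by limma) and Dscc1 (-1.58 ± 0.16 SE, adjusted p = 0.00149). Of the 21 mitosis genes 18 fell, with a median of -1.19, and here they went with the replication genes. B-lineage genes were lower, 6 of 10, with array medians of -2.36 to -0.98 against -0.10 to 0.21, and 3 of 10 myeloid, 2 of 7 mature B, 1 of 9 T-cell and 1 of 5 NK genes were higher. Of 8 stromal and 4 erythroid genes none was called by limma, with 2 and 1 at an unadjusted p under 0.05. Their part in the fall was not tested.

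The lymph nodes of Ebf1+/-Pax5+/- mice differed from the arrays labelled wild-type pro-B in few of these genes. Of the 42 genes 9 were higher, against 11.3% of all genes, and 1 was lower, against 8.64%. In either direction 23.8% of the set was called where 19.9% of all genes were, so the pooled count is near the background. By direction the set leaned to higher, with 34 of 42 differences above 0 where 9540 of 18193 genes had one. The median difference was 0.39, against 0.02 for all genes. When the probe sets were averaged per gene, the median of the 42 was 0.28. The nodes lay wholly above those 2 arrays for 11 genes, against 15.9% of all genes, and wholly below for 1, against 12.8%. Of the 9, 7 are licensing genes: Mcm2, Mcm3, Mcm4, Mcm5, Orc2, Orc5 and Cdc6. Cdc7 and Rpa1 are the others, and Rfc1 is the 1 that was lower.

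**Figure D5:**
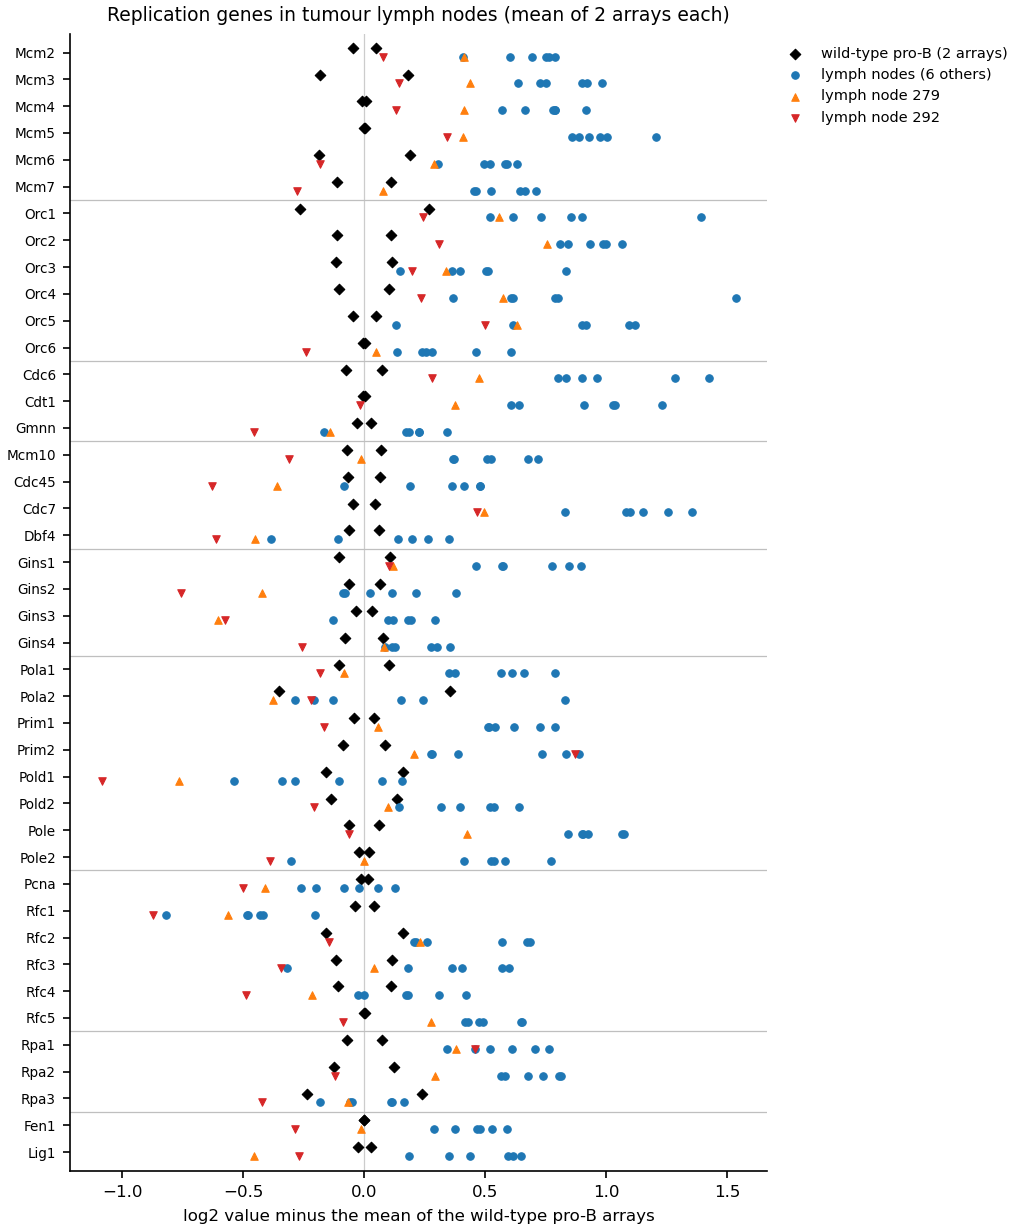
The 42 genes in the third experiment, as log2 value minus the mean of the arrays labelled wild-type pro-B (horizontal axis), with those 2 arrays as diamonds and 8 lymph nodes, each the mean of 2 arrays, as circles or triangles. Lymph node 292 is the lowest node for 35 of the 42 genes and node 279 is among the lowest 2 for 31.

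Cdc7 showed the largest difference, with nodes from 0.47 to 1.36 (median 1.09) and the labelled wild-type arrays at -0.04 and 0.04. It was 1.96-fold higher (0.97 ± 0.23 SE, n = 8 and 2, adjusted p = 0.0158 by limma). Mcm5 ran from 0.34 to 1.21 with a median of 0.91, Mcm2 from 0.08 to 0.79 with a median of 0.65, and Mcm4 from 0.13 to 0.92 with a median of 0.72, each above both of the other arrays. Mcm3 overlapped by 1 node, at 0.15 against 0.18. Orc2 lay at 0.31 to 1.07 with a median of 0.89 (0.84 ± 0.17 SE, n = 8 and 2, adjusted p = 0.00794 by limma), and Cdc6 at 0.28 to 1.43 with a median of 0.87. Gmnn, which restrains licensing, was not called (0.05 ± 0.19 SE, n = 8 and 2, adjusted p = 0.893), and its nodes lie on both sides of the other arrays.

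No GINS, polymerase or Okazaki fragment gene was called by limma, with 1 of 4, 2 of 8 and 0 of 2 at an unadjusted p under 0.05. Pold1, the catalytic subunit of polymerase delta, ran from -1.08 to 0.16, and Pcna from -0.50 to 0.13. Rfc1 was lower, with nodes at -0.87 to -0.20, but its 3 probe sets gave -0.53 to 0.44 and their mean was 0.05 (adjusted p = 0.846 by limma). The mean over probe sets also ended the calls of Mcm2, Mcm3, Mcm5 and Orc2. Orc4, at 0.69 and not called, had another probe set called lower, at -0.34. Without array 1 of those labelled wild-type pro-B 1 member was called, and without array 2 none was, with 7 at an unadjusted p under 0.05. Without node 292 16 were called, 15 of them higher, and 4 to 6 were called without node 277, 278, 327, 381 or 383. No member was called with every sample left out in turn.

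The nodes differed among themselves in every member. The moderated F test of limma over the 16 node arrays called 42 of 42 genes, against 59.6% of all genes, relative to the spread between the 2 arrays of a node, which may be technical. The median range over the 8 nodes was 0.89 for the set and 0.57 for all genes. Node medians of the 42 genes, relative to the labelled wild-type arrays, were 0.64 for node 383, 0.63 for 327, 0.52 for 317, 0.43 for 277, 0.41 for 381, 0.38 for 278, 0.09 for 279 and -0.18 for 292. The 6 highest nodes lie close together and nodes 279 and 292 below them, and node 383 was the highest for 13 genes and node 327 for 12. Node 292 was the lowest in 35 genes, but for Prim2 it stood at 0.87, the second highest, and its Rpa1 and Orc5 were not the lowest either.

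The mitosis genes did not follow the same order of nodes. Their medians were 0.43 for node 277, 0.23 for 327, 0.04 for 278, -0.23 for 383, -0.29 for 317, -0.90 for 292, -0.91 for 381 and -1.03 for 279, and none of the 21 was called against the labelled wild-type arrays by limma (3 at an unadjusted p under 0.05). Node 381 was thus low for mitosis genes and not for replication genes. Of the 33 other origin and fork genes 6 were higher, Dtl most (1.37 ± 0.39 SE, n = 8 and 2, adjusted p = 0.0336 by limma), and 3 were lower, Top1 most (-1.41 ± 0.21 SE, adjusted p = 0.0013).

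Markers of other cells differed in this comparison as well. Of 10 myeloid genes 8 were lower in the nodes, with node medians of -4.68 to -2.58, and of 8 stromal genes 5 were lower, with node medians of -1.49 to -0.91. The T-cell median reached 3.13 in node 279, 1.61 in node 383 and 1.17 in node 381 and lay between -0.23 and 0.20 in the rest. Node 279 also had the highest mature B median, 1.60, and an NK median of 2.66. B-lineage genes had 1 higher and 1 lower of 10, and erythroid genes 1 higher and 2 lower of 4. None of the 7 mature B, 9 T-cell or 5 NK genes was called by limma, with 0, 1 and 0 at an unadjusted p under 0.05. Their part in the order of the nodes and in the differences from the labelled wild-type arrays was not tested.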

How the data were processed

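RNA of 32 samples was measured on 1-colour Affymetrix arrays of 45101 probe sets. Per the submitters' processing notes the authors used RMA. The deposited values, whose log base is not stated, were taken as log2 intensities. The median of a probe set over the arrays of its experiment was 0 (tolerance 0.0001) for all probe sets in the first 2 experiments. In the third this held for 10879, and the centring of the others was not identified. Array medians ran from -0.0139 to 0.0495, and the number of arrays limits the precision.

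Of the probe sets, 34945 named 1 gene, 932 several and 9211 none, and 13 control probe sets were left out. The most variable probe set over an experiment's arrays stood for each of 18193 genes. Each experiment was fitted in limma 3.58.1 (R 4.3.3) with lmFit and eBayes, the 2 arrays of a lymph node being averaged, with Benjamini-Hochberg adjustment over all genes and calls at an adjusted p under 0.05. Errors are limma standard errors. Scripts were tested on simulated data. Of 35 other origin and fork genes listed, 33 were measured.

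The reported fits used no pairing. The array numbers of the pre-B line were taken as pairs only in the alternative with the array number as a block. Deviations from the group means correlated at 0.29 to 0.44 over the 3 same-numbered pairs. Over the 6 pairs of different number they correlated at -0.40 to 0.29, so the ranges touch. Any of the 42 genes could be named, and of the other origin and fork genes the 2 largest changes per comparison. Members and lists were chosen with earlier results of these data known. Alternatives were the mean of all probe sets, a variance filter, robust eBayes, median centring of arrays, the array number as a block, 1 fit over all arrays, other treatments of the paired node arrays, and leaving out each sample. The arrays of a lymph node were averaged in the fit over all arrays too.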

Additional observations from a re-analysis of the deposited data

Results flagged for a closer look

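For 4 of the 42 genes 1 lymph node stood apart from the other 7 by more than Dixon's critical value, as a share of the whole range. Chance alone gives about 1 such node in 20 genes when the genes are independent. These genes share the same nodes, and node 292 was the lowest for 35 of the 42. The count can therefore not be set against that rate. Node 292 was the lowest for Mcm6 (-0.18, with a gap of 0.579 of the range), Orc2 (0.31, gap 0.587) and Gins4 (-0.26, gap 0.556). Node 317 was the highest for Orc4 (1.54, gap 0.565). Values are log2 relative to the arrays labelled wild-type pro-B.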

How the results depend on the processing

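The sizes of the changes depended on the choice of probe set. When the probe sets were averaged per gene, the median change of the members was smaller at 6, 12 and 24 h against 0 h. It was smaller for Ebf1-Engrailed and for the lymph nodes too. Counts of called members after Ebf1-ER activation stayed within 1.5 times of the reported count at 6, 12 and 24 h against 0 h in every alternative run. Leaving out each array gave 34 to 37, 39 to 41 and 40 to 41 there, 0 to 0 for 24 h against 12 h, 21 to 32 for Ebf1-Engrailed, and 40 to 42 for the differences between nodes. For 12 h against 6 h the range was 3 to 17, a single fit over all arrays called 0 and the replicate block called 10. For 24 h against 6 h the range was 12 to 29 and the single fit called 3. For the lymph nodes the range was 0 to 16, the mean of all probe sets called 5 and the single fit 17. Rfc1 there turned to 0.0523 with the mean of its probe sets, which disagree. The cause of the other shifts was not tested.

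In the pre-B line the replicate block called 30 members. In the Ebf1-ER course same-numbered arrays correlated at -0.25 to 0.15. With 2 arrays per time, arrays of different number give the same values with the sign reversed. Whether the numbers mark pairs there is thus not settled. The replicate block called 36, 40 and 42 members at 6, 12 and 24 h against 0 h in this course. It called 22 for 24 h against 6 h and 0 for 24 h against 12 h. A group of 2 arrays with 1 left out has a lone array, which is assumed to vary like the others.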
